A study of Arabidopsis thaliana with 8 samples.

Results

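Wild-type Arabidopsis thaliana seedlings (Col-0) were profiled in 2 experiments, and the second experiment was compared here with the first. The 4 arrays named air2-1, air2-2, ethylene2-1 and ethylene2-2 were set against the 4 named air1-1, air1-2, ethylene1-1 and ethylene1-2, so all 8 arrays of the series took part and the treatment was kept as a block. Each experiment has 2 air arrays, of seedlings that spent 72 h in darkness without added gas, and 2 ethylene arrays, of seedlings that spent 68 h in air before 4 h of ethylene at 10 ppm. All seedlings were 3 days old, carried no transgene or mutation according to the labels, and were frozen whole. The labels name the experiments as first and second and give no seed lot, chamber, date or other difference between them. Each experiment stands for 1 growth, and no label says that its replicas were separate cultures. The p-values below therefore measure the spread between arrays within an experiment and treatment, which may be technical, and not the spread among repeated growths.

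A seedling that germinates in the dark lengthens its hypocotyl and lives on the oil, protein and sugar laid down in the seed. Its plastids are etioplasts, which hold chlorophyll precursors and a reduced photosynthetic apparatus until light arrives. Cell walls are loosened and rebuilt during this growth by expansins, xyloglucan endotransglucosylases and endoglucanases.

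Each array gave a scaled intensity for 22810 probe sets. Differences are given as experiment 2 minus experiment 1 on the scale log2(intensity + 16), averaged over air and ethylene, with their standard error (SE) and a limma p with Benjamini-Hochberg adjustment across the 15922 probe sets that were tested. Calls were made below an adjusted p of 0.05, and "rose" and "fell" are used for called probe sets alone. In all, 2903 probe sets (18.2%) were higher and 1975 (12.4%) were lower in experiment 2, together 30.6% of those tested. Over the 8580 genes represented by 1 probe set, 17.5% were called higher and 11.0% lower. The counts of gene groups below stand beside these shares. Each group holds only genes that the array annotation names and that matched by symbol or synonym. A count therefore need not cover a whole family or pathway. All 4 arrays of one experiment lay above all 4 of the other for 3826 probe sets (24.0%). Most differences were small, with a median size of 0.66 on the log2 scale among called probe sets. At least a 2-fold difference was reached by 501 of the higher and 322 of the lower, and at least a 4-fold difference by 27 and 26. The median difference over all probe sets tested was 0.07, and the balance of directions rested on the scaling. After scaling each array to the same median, the counts were 1776 higher and 2983 lower and the median difference was −0.07, and after quantile normalization the counts were 2407 and 2245.

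The arrays themselves also differed between the experiments. Of the 18 probe sets for bacterial and phage control RNA, whose targets are added to the sample and not made by the plant, all 18 had negative differences, of −2.09 to −1.17 on the log2 scale. Their geometric mean intensity was 13042 to 19255 on the arrays of experiment 1, and 4116, 4780, 3611 and 10754 on air2-1, air2-2, ethylene2-1 and ethylene2-2. The highest intensity on an array was 217930 to 348480 in experiment 1 and 94598 to 191560 in experiment 2. In the brightest of 10 equal classes of probe sets 32.4% were called lower and 12.8% higher, with a median difference of −0.15, while in each of the other classes more were called higher than lower. The probe sets for the 3 prime end of actin mRNA differed by 0.22 and 0.09 and those for its 5 prime end by −1.19 and −0.16. For ubiquitin the 3 prime probe sets differed by −0.72 and −0.79 and the 5 prime ones by −0.35 and −0.64, and for GAPDH the 3 prime ones by 0.21 and 0.22 and the 5 prime ones by 0.17 and −0.19. Scaling each array to the 18 bacterial and phage control probe sets, an alternative chosen after the data were seen, gave 14454 probe sets higher and 12 lower, so every direction given here is relative to the mean level of all probe sets. The part of these array properties in the results below was not tested, and growth and array processing cannot be told apart in this design. The value after quantile normalization, which gives every array the same distribution, is given for the bright genes that it moved most.

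**Figure D1:**
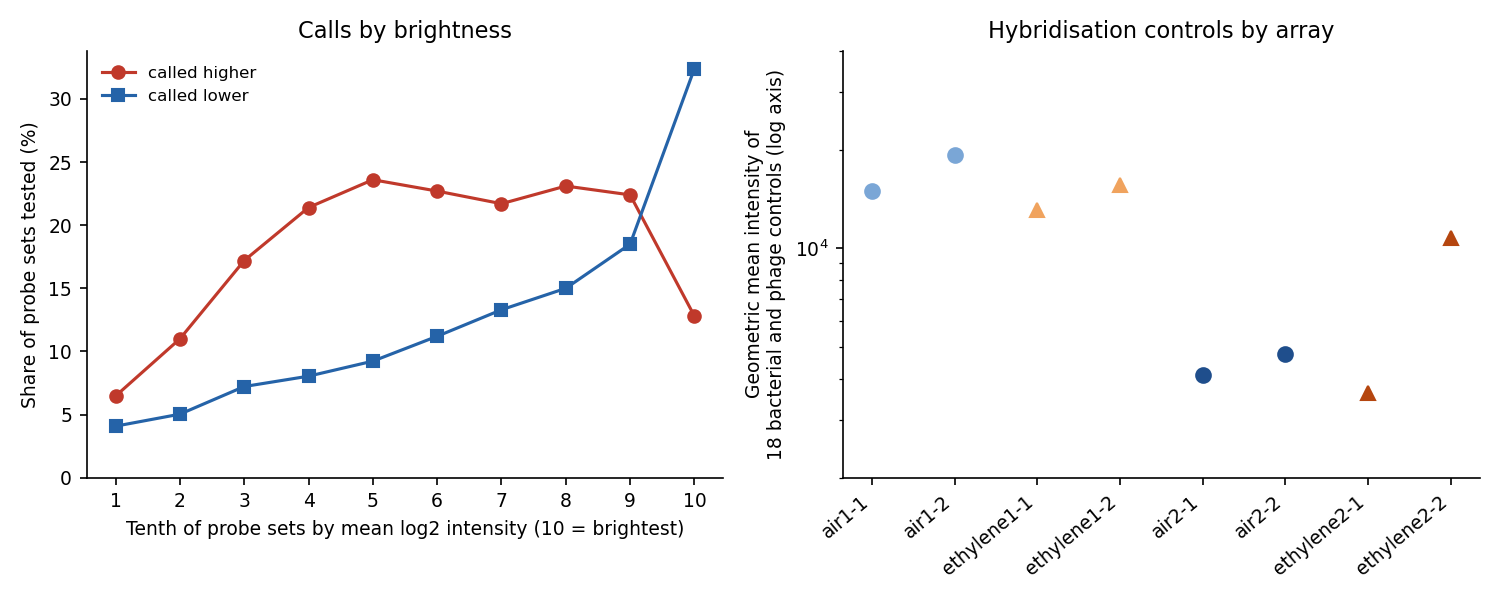
Left, the share of probe sets called higher (red circles) or lower (blue squares) in experiment 2, in percent, for each of 10 equal classes of the 15922 probe sets by mean log2 intensity. Right, the geometric mean intensity of the 18 bacterial and phage control probe sets on each array (log axis; circles, air; triangles, ethylene; light, experiment 1; dark, experiment 2). The share called lower reaches 32.4% in the brightest class, and ethylene2-2, at 10754, lies nearer to the experiment 1 arrays than the other 3 arrays of experiment 2.

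The difference between experiments was of the same kind in air and in ethylene. With all arrays in 1 model that gives each treatment its own difference, limma called 1365 increases and 1045 decreases in air, and 1226 and 946 in ethylene. Of those called in both treatments, 1175 had the same direction and 0 the opposite. Of 2410 probe sets called in air, 2337 had the same sign in ethylene, and of 2172 called in ethylene, 2111 had the same sign in air. How many of all 15922 probe sets had the same sign was not counted, so these counts stand without a baseline. The air and ethylene differences rest on separate arrays, and over the 15922 probe sets, which are not independent replicates, they correlated with r = 0.684 and rho = 0.667. A difference between the experiments that depended on the treatment was called by limma for 0 probe sets (smallest adjusted p = 0.107). Before adjustment 917 were below 0.05, and 796 are the number that chance gives.

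**Figure D2:**
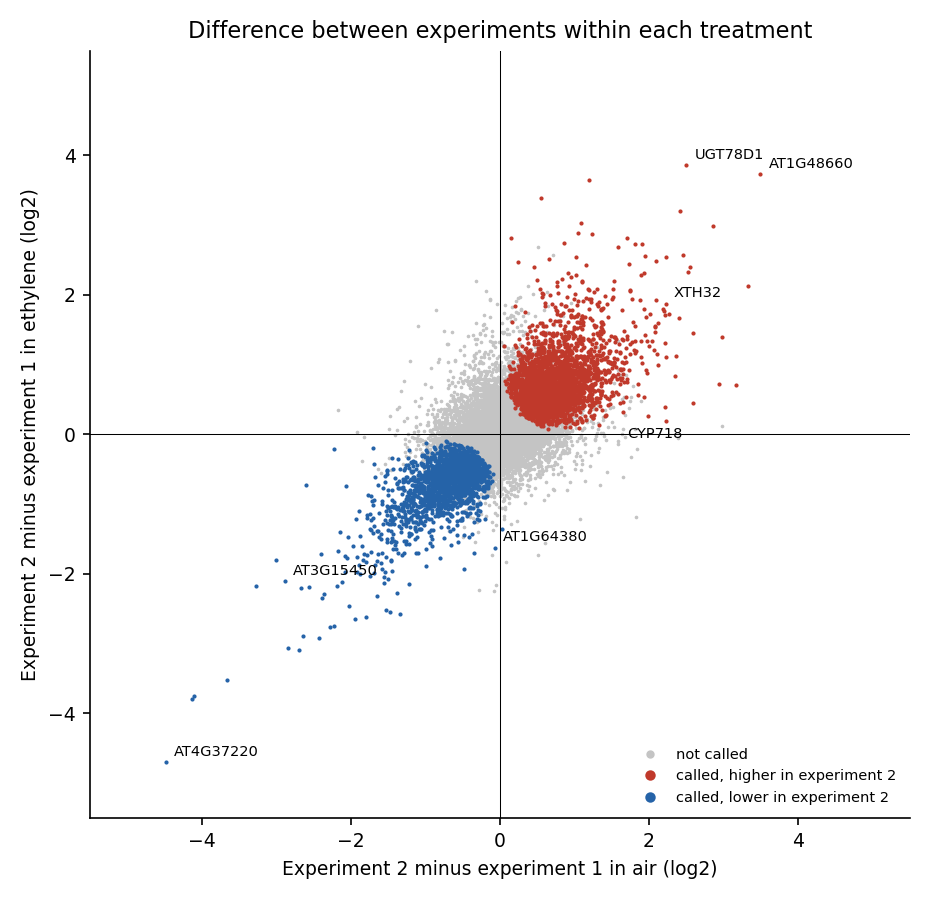
Each point is 1 of the 15922 probe sets, with its difference in air (experiment 2 minus experiment 1, log2) on the horizontal axis and its difference in ethylene on the vertical axis. Red and blue points were called higher and lower over both treatments, and grey points were not called. Called points lie almost all at the upper right and the lower left. A call on the average of the 2 differences favours this position, so it is no separate evidence that the treatments are alike. CYP718, at 1.59 in air and −0.14 in ethylene, lies off this diagonal.

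The largest single difference belonged to AT4G37220, for which the gene table gives no symbol. Its intensity was 35801, 45231, 37576 and 48366 on air1-1, air1-2, ethylene1-1 and ethylene1-2, and 1709, 1847, 1666 and 1581 on air2-1, air2-2, ethylene2-1 and ethylene2-2. Every array of the second experiment was thus far below every array of the first, in air and ethylene alike, and its difference was −4.595 (SE 0.12, adjusted p = 2.6e-11 in limma), a 24.2-fold decrease. AT4G25580 fell by 2.89 (SE 0.21, adjusted p = 4.98e-07), from 1741 to 2777 on the arrays of experiment 1 to 228 to 320 on those of experiment 2. AT3G15450 was bright in both experiments, at 77775, 73753, 110874 and 87307 in the first (in the same order of arrays) and 11735, 8867, 23103 and 22504 in the second. It fell by 2.50 (SE 0.16, adjusted p = 2.32e-07), with a difference of −2.17 after quantile normalization, and the arrays of the experiments did not overlap although ethylene2-1 and ethylene2-2 were brighter than the air arrays of experiment 2. AT1G72060, AT2G20670 and AT5G56100 fell by 2.44, 2.21 and 2.18.

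Among the 12 named genes with the largest decreases, 3 have a symbol. These 12, and the 12 increases below, have no overlap and a mean intensity of at least 1000 in the brighter experiment. MCCA, the biotin-carrying subunit of methylcrotonyl-CoA carboxylase, is described with its pathway below. AKINBETA1 encodes a beta subunit of SnRK1, the protein kinase complex that responds to low energy supply. Its intensity was 20915, 26069, 27747 and 26685 on air1-1, air1-2, ethylene1-1 and ethylene1-2, and 7315, 5390, 7465 and 7347 on air2-1, air2-2, ethylene2-1 and ethylene2-2. The 2 groups of values were well apart, with air2-2 the lowest, and the gene fell by 1.88 (SE 0.12, adjusted p = 2.32e-07). SIS, listed as a salt-induced serine-rich protein, went from 23836 to 44467 in experiment 1 to 6335 to 10276 in experiment 2 and fell by 1.91 (SE 0.15, adjusted p = 1.48e-06). The remaining members of these 12, AT1G68620, AT4G16000 and AT2G05540, had differences of −1.95, −1.77 and −1.76, the last −1.41 after quantile normalization.

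AT1G48660 had the largest increase of the named genes, and its intensity was 109, 113, 224 and 24.3 on air1-1, air1-2, ethylene1-1 and ethylene1-2 and 1007, 1981, 1729 and 969 on air2-1, air2-2, ethylene2-1 and ethylene2-2. It was dim in experiment 1, and its increase of 3.61 (SE 0.45, adjusted p = 7.6e-05) is less well fixed than those of brighter genes. AT3G17520, AT2G25890, AT4G30650, AT3G02480 and AT1G34510 rose by 2.52, 2.38, 2.26, 2.25 and 2.19. AT2G25890 was the least certain of the 12 largest increases, with an intensity of 14.1 on ethylene1-1 and an SE of 0.56. Its call was lost without the treatment block and in the ethylene arrays alone. AT2G41090, AT3G15670 and AT4G21870 rose by 1.90, 1.87 and 1.86. The other 3, XTH32, GH9B8 and LEA18, are described with their families. Of these 24 genes with the largest changes, AT2G25890 was the 1 gene that missed the threshold in any alternative in which it was tested, scaling to the control probe sets left aside.

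**Figure D3:**
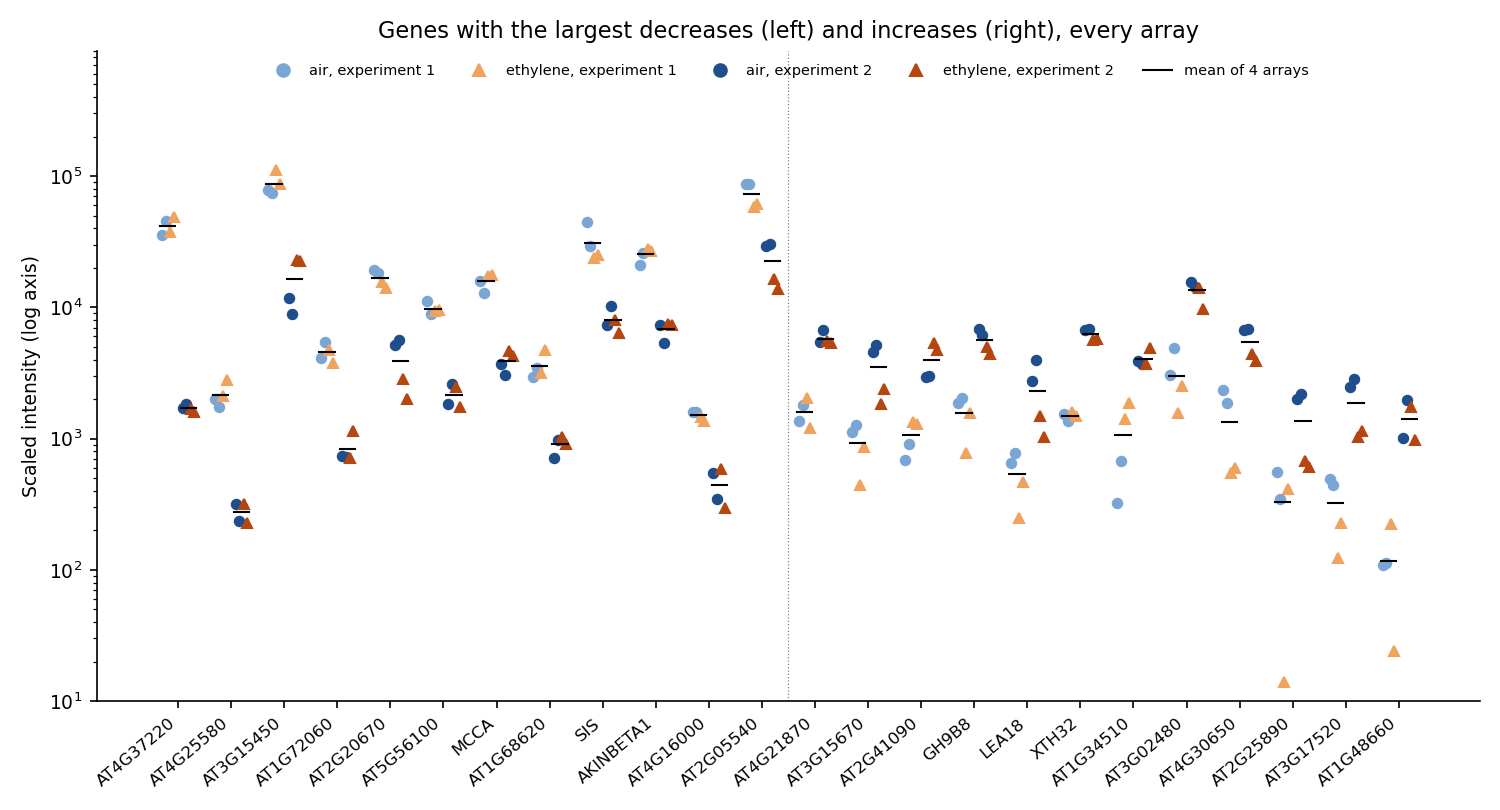
Scaled intensity (log axis) on every array for the 12 named genes with the largest decreases (left of the dotted line) and the 12 with the largest increases (right), ordered from the largest decrease to the largest increase. Circles are air and triangles ethylene, light symbols are experiment 1 and dark symbols experiment 2, and each bar is the mean of 4 arrays. The light and dark symbols of each gene do not overlap, and its mean intensity in the brighter experiment is at least 1000. The rule for choosing these genes required both.

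Genes of leucine breakdown fell. In this mitochondrial route isovaleryl-CoA dehydrogenase (IVD) passes electrons through an electron transfer flavoprotein and its oxidoreductase ETFQO to the respiratory chain, and methylcrotonyl-CoA carboxylase, made of MCCA and MCCB, acts on the product. The intensity of MCCA was 15822, 12870, 17181 and 17722 on air1-1, air1-2, ethylene1-1 and ethylene1-2 and 3719, 3047, 4613 and 4226 on air2-1, air2-2, ethylene2-1 and ethylene2-2. The 2 experiments lay wide apart in both treatments, and MCCA fell by 2.03 (SE 0.12, adjusted p = 9.52e-08), with differences of −2.08 in air and −1.98 in ethylene. IVD was at 13384, 10092, 26041 and 21039 in experiment 1 and at 4665, 4338, 7774 and 6599 in experiment 2, in the same order, and fell by 1.54 (SE 0.13, adjusted p = 2.84e-06). It was higher in ethylene than in air within both experiments, and the experiments still did not overlap.

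ETFQO fell by 1.19 (SE 0.17, adjusted p = 0.000198), with intensities of 2528 to 4194 in experiment 1 and 1188 to 1629 in experiment 2. MCCB fell by 0.94, from 9444 to 12583 to 4855 to 6646, and ALDH6B2, a methylmalonate semialdehyde dehydrogenase of valine breakdown, fell by 0.60 (adjusted p = 0.0019). In all, 5 of 9 tested members of the branched-chain amino acid and electron transfer flavoprotein group fell, where 11.0% of the 8580 genes tested were called lower and 17.5% higher. The group's median was −0.60 against 0.07 for all probe sets. The differences of the other 4, ETFALPHA (0.33), ETFBETA (0.29), D2HGDH (0.16) and ATBCAT-5 (−0.03), did not pass, although ETFALPHA and ETFBETA, the 2 subunits of the flavoprotein, were called higher without ethylene2-2. The 5 calls were kept in each treatment alone, without any 1 array and after median scaling or quantile normalization. This group was composed after the values of some members had been seen, so its count describes these arrays and is no test.

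Of 7 tested SWEET sugar transporters 4 fell, with a median of −0.60. SWEET11 exports sucrose across the plasma membrane. Its intensity was 69484, 76124, 62031 and 58160 on air1-1, air1-2, ethylene1-1 and ethylene1-2 and 25279, 19665, 21425 and 23428 on air2-1, air2-2, ethylene2-1 and ethylene2-2. All arrays of experiment 2 were far below those of experiment 1, and the gene fell by 1.56 (SE 0.12, adjusted p = 1.03e-06), or by 1.24 after quantile normalization. SWEET3, SWEET16, a transporter of the vacuole membrane, and SWEET1, a glucose transporter, fell by 0.87, 0.72 and 0.60. SWEET13 (−0.51), SWEET2 (−0.31) and the vacuolar fructose transporter SWEET17 (0.45) did not pass. The 4 falls were present without any 1 array, while SWEET17 rose without ethylene2-2.

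Genes of starch metabolism were higher. SBE2.2, a starch-branching enzyme, was at 1197, 1141, 1628 and 1519 on air1-1, air1-2, ethylene1-1 and ethylene1-2 and at 2118, 2331, 2437 and 2775 on air2-1, air2-2, ethylene2-1 and ethylene2-2. The arrays of experiment 2 were all above those of experiment 1, and it rose by 0.82 (SE 0.13, adjusted p = 0.00059). APL3, a large subunit of ADP-glucose pyrophosphorylase, which makes the donor for starch synthesis, rose by 1.35 (SE 0.24, adjusted p = 0.000968), from 266 to 421 in experiment 1 to 740 to 1026 in experiment 2. DPE1, a disproportionating enzyme of starch breakdown in plastids, and PWD, a phosphoglucan water dikinase, rose by 1.07 and 0.71. All 4 members with a named probe set that were tested rose, 2 of them for synthesis and 2 for breakdown. This group, too, was put together with values in view.

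Of 5 tested nuclear photosynthesis genes 3 fell and 1 rose. LHCB4.2, a minor antenna protein of photosystem II, was at 18108, 14780, 10622 and 15000 on air1-1, air1-2, ethylene1-1 and ethylene1-2 and at 6150, 8466, 7299 and 7926 on air2-1, air2-2, ethylene2-1 and ethylene2-2, and it fell by 0.95 (SE 0.15, adjusted p = 0.000478). The experiments did not overlap. PSBY and LHCB4.1 fell by 0.47 and 0.45, and PSBW, of photosystem II, rose by 0.52. The call of LHCB4.1 ended after quantile normalization (−0.29) and without air1-1 or air2-1 (limma adjusted p = 0.0692 and 0.0821), and that of PSBW without air1-2, air2-2, ethylene1-1 or ethylene2-1 (0.0520 to 0.0732) and after median scaling. From a small group of carbon metabolism genes that was added after values were seen, HPR, the hydroxypyruvate reductase of photorespiration, fell by 1.23 (SE 0.13, adjusted p = 2.49e-05), from 7641 to 10910 to 3337 to 4209. PRK, the phosphoribulokinase of the Calvin cycle, fell by 0.93, while SBPASE (0.41) and RCA (0.19) did not pass.

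Plastid-encoded genes are given by what they encode, and no test compared the groups. Of 19 tested genes for the plastid ribosome and RNA polymerase, 8 rose, with a group median of 0.65. The intensity of rpl14, for a protein of the large ribosomal subunit, was 2561, 670, 475 and 1009 on air1-1, air1-2, ethylene1-1 and ethylene1-2 and 1829, 4726, 3377 and 4286 on air2-1, air2-2, ethylene2-1 and ethylene2-2. The array air1-1 lay above air2-1, so the experiments overlapped, and rpl14 rose by 1.79 (SE 0.41, adjusted p = 0.0047). rpl22, rpl16 and rps3, which are transcribed with it from 1 gene cluster and so are not separate observations, rose by 1.57, 1.40 and 1.29. The other 4 were rpl33, rps16, rpoC1 and rps2, at 1.203, 1.08, 1.07 and 0.65. Leaving out 1 array ended the calls of rpl33 (air1-2, air2-2, ethylene1-1 or ethylene2-1, adjusted p = 0.0523 to 0.0713), rpoC1 (air1-2, air2-2 or ethylene1-1, 0.0523 to 0.0696), rps16 (these 3, ethylene2-1 or ethylene2-2, 0.0676 to 0.0984) and rps2 (any but air1-1 and air2-1, 0.0736 to 0.139). The call of rps2 also ended after quantile normalization and after median scaling. None of the 8 was free of overlap between the experiments. The number that rose was 4 without air1-2, air2-2 or ethylene1-1, 5 without ethylene2-1 and 11 without air2-1, and in a fit to the air arrays alone it was 0 against 10 in the ethylene arrays alone, a difference between treatments for which limma made no call.

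Of 20 tested plastid genes for photosystem subunits, 4 fell and 1 rose, with a median of −0.19, which was −0.33 in the air arrays and 0.17 in the ethylene arrays. Called genes made up 25.0% of the group, which is not above the 30.6% of all probe sets tested. psbE, for a subunit of cytochrome b559 in photosystem II, was at 19635, 17782, 14486 and 14203 on air1-1, air1-2, ethylene1-1 and ethylene1-2 and at 4503, 7382, 8757 and 6296 on air2-1, air2-2, ethylene2-1 and ethylene2-2. Every array of experiment 2 was below those of experiment 1, and psbE fell by 1.32 (SE 0.18, adjusted p = 0.000147). psbF, for the other subunit of cytochrome b559, fell by 1.04, and psbJ, which belongs to the same transcription unit, by 0.56. The falls of psbE, psbF and psbJ are therefore not separate observations. The call of psbJ ended without air2-1 (adjusted p = 0.0570) or ethylene2-2 (0.0520). psbM fell by 0.70, or by 0.18 with no call after quantile normalization, and psbZ rose by 1.26. The number that rose was 4 without air1-1, 3 without air2-1 and 2 without ethylene1-2. Of 13 genes for the ATP synthase, the cytochrome b6f complex and Rubisco limma called 0, with 3 at an unadjusted p under 0.05. After median scaling 3 of the 13 fell, 2 rose without air1-1 or air2-1, 1 fell without air2-2 or ethylene2-1 and 3 fell without ethylene2-2, and with replicas averaged 4 rose and 5 fell.

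Nuclear genes of tetrapyrrole synthesis, the route to chlorophyll and heme, had 5 of 11 tested members rising and 1 falling, with a median of 0.52. LIL3:1, a light-harvesting-like protein needed for a late step of chlorophyll synthesis, was at 3145, 2154, 2716 and 3084 on air1-1, air1-2, ethylene1-1 and ethylene1-2 and at 4853, 5533, 8484 and 7098 on air2-1, air2-2, ethylene2-1 and ethylene2-2. The experiments did not overlap, and it rose by 1.203 (SE 0.15, adjusted p = 6.73e-05). GSA1, which makes 5-aminolevulinate, and CHLI2, a subunit of magnesium chelatase, rose by 0.56 and 0.80, and HEME1 and HEME2, uroporphyrinogen decarboxylases, by 0.53 and 0.62. CHLM, the methyltransferase that follows magnesium chelatase, fell by 0.52. The calls of HEME1 ended without air1-2 or air2-2 (adjusted p = 0.0561 and 0.0552) and that of CHLM without air2-1 (0.0512). PORB, the protochlorophyllide oxidoreductase gene, differed by 0.23 and did not pass, while after quantile normalization it was called at 0.57. This group was composed with values in view.

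**Figure D4:**
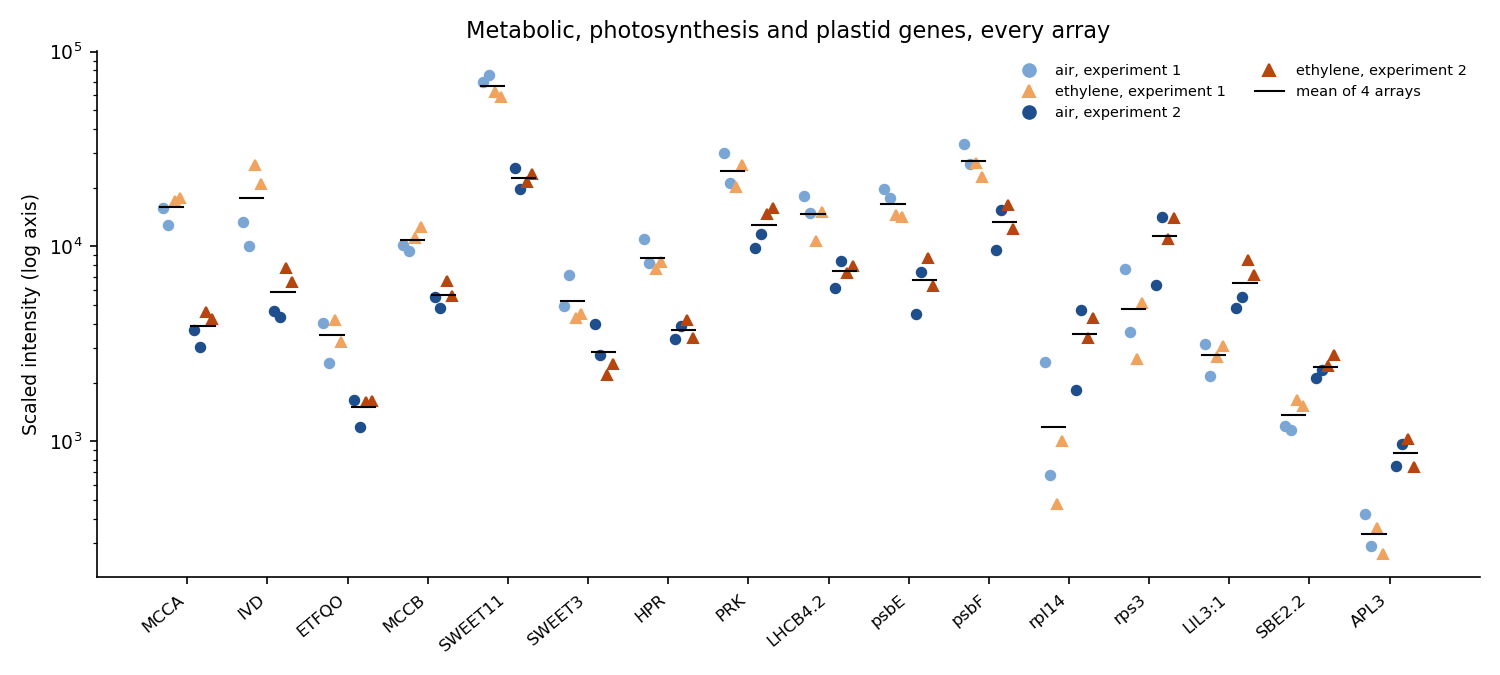
Scaled intensity (log axis) on every array for genes of leucine breakdown (MCCA, IVD, ETFQO, MCCB), sugar transport (SWEET11, SWEET3), carbon metabolism and light harvesting (HPR, PRK, LHCB4.2), plastid-encoded genes (psbE, psbF, rpl14, rps3), chlorophyll synthesis (LIL3:1) and starch (SBE2.2, APL3). Circles are air and triangles ethylene, light symbols are experiment 1 and dark symbols experiment 2, and bars are means of 4 arrays. The experiments overlap for rpl14 and rps3 and are apart for the other genes shown.

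Among cell wall genes, several xyloglucan endotransglucosylases rose. XTH32, of this family of wall-loosening and wall-joining enzymes, was at 1526, 1350, 1580 and 1483 on air1-1, air1-2, ethylene1-1 and ethylene1-2 and at 6659, 6868, 5627 and 5690 on air2-1, air2-2, ethylene2-1 and ethylene2-2. The arrays within an experiment were close to each other and far from those of the other experiment, and XTH32 rose by 2.05 (SE 0.12, adjusted p = 1.38e-07), a 4.14-fold increase. Of 9 tested members of this family 4 rose, also without any 1 array, and the other 3 of these were XTH26 (1.65), XTH19 (1.08) and XTH18 (0.77). XTH26, known from root hairs, was dim in air in experiment 1 (57.6 and 14.7), and its call was absent in the air arrays alone. The other 5 members lay between −0.10 and 0.23.

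Of 14 tested expansins, which loosen the wall, 3 fell and 1 rose, with a median of −0.13. The share of expansins called, 28.6%, was near the 30.6% of all probe sets tested. The XTH median was 0.23, and the difference between the families was not tested. EXPA16 fell by 1.24 (SE 0.21, adjusted p = 0.000685), from 798 to 1212 in experiment 1 to 344 to 462 in experiment 2, without overlap. EXPA4 fell by 0.73. Its values overlapped between experiments, because it was also lower in ethylene than in air in both, and its call needed the treatment block. EXPA8 fell by 0.35, a call that ended without 6 of the 8 arrays when each was left out alone (all but ethylene1-1 and ethylene2-2, adjusted p = 0.0630 to 0.144), and EXPA20 rose by 0.63, a call that ended without air2-2 (0.0657).

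Among glycosyl hydrolases of family GH9, the endoglucanases, 4 of 10 tested members rose, with a median of 0.39. GH9B8 rose by 1.91 (SE 0.19, adjusted p = 9.06e-06), from 772 to 2033 in experiment 1 to 4418 to 6891 in experiment 2. GH9C1, GH9B13 and GH9C2 rose by 0.84, 0.43 and 0.34. The calls of GH9B13 and GH9C2 ended after median scaling and without ethylene1-1, ethylene1-2 or ethylene2-2 (adjusted p = 0.0504 to 0.136), which left 2. GH9B13 also lost its call without air2-2 (0.0579), and GH9C2 without air1-2, air2-1 or air2-2 (0.0587 to 0.105). PMEPCRF and ATPMEPCRB, pectin methylesterases, rose by 1.15 and 0.89, without overlap between experiments. TBL41, of the family of wall polymer acetyltransferases, rose by 1.81 (SE 0.17, adjusted p = 4.92e-06), while TBL36 of the same family fell by 1.03. In this family 2 of 17 tested members rose and 1 fell, a share of 17.6%, below the 30.6% of all probe sets tested. Of 5 tested genes of the flavonoid and phenylpropanoid pathway 2 fell. CCOAMT, a caffeoyl-CoA O-methyltransferase, fell by 1.204 (SE 0.22, adjusted p = 0.00126), and HCT, a hydroxycinnamoyl transferase, by 0.50. The class III peroxidase genes AT5G64120 (PRX71) and PRXR1 fell by 1.02 and 0.74, the second by 0.04 with no call after quantile normalization.

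Of 36 tested UDP-glycosyltransferases, which attach sugars to small molecules, 11 rose and 1 fell, with a median of 0.33. The share called in either direction was 33.3%, against 30.6% of all probe sets tested. UGT78D1, which attaches rhamnose to flavonols, was dim in experiment 1, at 128, 262, 41.6 and 47.7 on air1-1, air1-2, ethylene1-1 and ethylene1-2, and was at 962, 1287, 979 and 760 on air2-1, air2-2, ethylene2-1 and ethylene2-2. The experiments were apart, and it rose by 3.18 (SE 0.35, adjusted p = 2.81e-05). UGT85A2, UGT74B1, an enzyme of glucosinolate synthesis, and UGT72E2, which acts on lignin precursors, rose by 0.85, 0.81 and 0.73. IAGLU, which conjugates auxin to glucose, fell by 0.42, a call that ended without air1-1, air1-2, air2-1 or ethylene1-2 (adjusted p = 0.0524 to 0.105). The count of 11 was 7 without air2-2 and 2 in the ethylene arrays alone.

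Of 12 tested beta-glucosidases 7 rose and 1 fell, with a median of 0.64. BGLU40 rose by 0.94 (SE 0.13, adjusted p = 0.00016), from a range of 1232.3 to 1732.5 in experiment 1 to one of 2561.2 to 3162.5 in experiment 2. BGLU46, which acts on lignin precursor glucosides, and BGLU44 rose by 0.97 and 0.85. PYK10, the bright beta-glucosidase of ER bodies in roots and seedlings, fell by 0.86, and its difference was 0.0026 with no call after quantile normalization. Of 14 serine carboxypeptidase-like genes 6 rose, led by scpl35 at 0.94, with a median of 0.25. After median scaling 3 of the 14 were called higher and 3 lower. The count of 6 was 4 to 6 without 1 array, 2 in the air arrays alone and 2 in the ethylene arrays alone. SCPL49 lost its call without any 1 array other than ethylene1-2 and ethylene2-2. SCPL27 lost it without air1-2 or air2-1, and SCPL34 without ethylene1-2 or ethylene2-2. Of 9 tested glutathione S-transferases 3 rose, 1 fell and 5 were not called, with a median of −0.05. GSTU20, GSTU25 and GSTU26 rose by 1.33, 0.85 and 0.71. GSTU22 fell, a call that ended without air1-2, ethylene1-1, ethylene1-2 or ethylene2-1. GTR1, a glucosinolate transporter, rose by 0.99.

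Some late embryogenesis genes, whose products protect the drying seed, rose. LEA18 was at 655, 772, 250 and 465 on air1-1, air1-2, ethylene1-1 and ethylene1-2 and at 2739, 3951, 1474 and 1031 on air2-1, air2-2, ethylene2-1 and ethylene2-2. It was lower in ethylene than in air in both experiments, all arrays of experiment 2 were above those of experiment 1, and it rose by 1.99 (SE 0.22, adjusted p = 3e-05). AtLEA4-1 and LEA4-5 rose by 0.91 and 0.86, with overlap, and the call of AtLEA4-1 ended without air2-2 (adjusted p = 0.0952). Of 7 tested members of the seed storage and late embryogenesis list 5 rose and 1 fell, and the oil body protein gene OLEO3 was the one that fell, by 0.31. The list was filled by symbol and synonym and need not hold every gene of these kinds. AT3G17520, AT2G25890 and AT3G02480, among the largest increases above, were not placed in it. The fall of OLEO3 therefore does not stand for oil body genes as a group. The count of 5 was 3 or 4 whichever 1 array was left out, 3 without air2-2 or ethylene1-1, and it was 1 without the treatment block. The OLEO3 call ended without any 1 array other than ethylene1-1 (adjusted p = 0.0503 to 0.117). No mobilisation of seed oil could be followed, since only 3 genes of that list were tested, and AIM1, of fatty acid breakdown, rose by 0.31 in a call that ended without any 1 array other than ethylene1-2 (0.0604 to 0.121).

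The NET proteins bind actin filaments at membranes, and 5 of 7 tested genes for them rose, with a median of 1.06. NET1B was at 571, 442, 323 and 562 on air1-1, air1-2, ethylene1-1 and ethylene1-2 and at 1902, 2096, 1372 and 1433 on air2-1, air2-2, ethylene2-1 and ethylene2-2. The experiments were apart, and NET1B rose by 1.82 (SE 0.20, adjusted p = 2.85e-05). NET1A, NET1D, NET1C and NET4B rose by 1.51, 1.23, 1.06 and 0.91, and NET2D (0.27) and NET3A (0.12) did not pass. The call of NET1C ended without air1-2, air2-1, air2-2, ethylene1-1, ethylene2-1 or ethylene2-2 (adjusted p = 0.0609 to 0.143) and after median scaling or quantile normalization. Cytoskeleton genes were measured too. The tubulin genes TUB1 and TUB5 rose by 0.58 and 0.49, the second with no call after median scaling (0.35). TUA6 fell by 0.38 but was 0.15 higher after quantile normalization, and its call ended without any 1 array other than air1-1 and ethylene2-2 (adjusted p = 0.0612 to 0.135). The NET group was added after values were seen.

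Of 6 tested bHLH regulators of the iron response 4 fell. PYE, a bHLH factor that represses iron-deficiency genes, was at 2360, 2743, 1994 and 1588 on air1-1, air1-2, ethylene1-1 and ethylene1-2 and at 970, 995, 969 and 1270 on air2-1, air2-2, ethylene2-1 and ethylene2-2. The experiments did not overlap, with ethylene2-2 the highest of the second, and PYE fell by 1.02 (SE 0.18, adjusted p = 0.000938). bHLH121, ILR3 and bHLH34, bHLH factors of the same response, fell by 0.71, 0.60 and 0.55, and bHLH115 (−0.17) and bHLH104 (−0.09) did not pass. This group was composed with values in view. The call of bHLH34 ended without any 1 array other than ethylene2-2 (adjusted p = 0.0670 to 0.164).

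**Figure D5:**
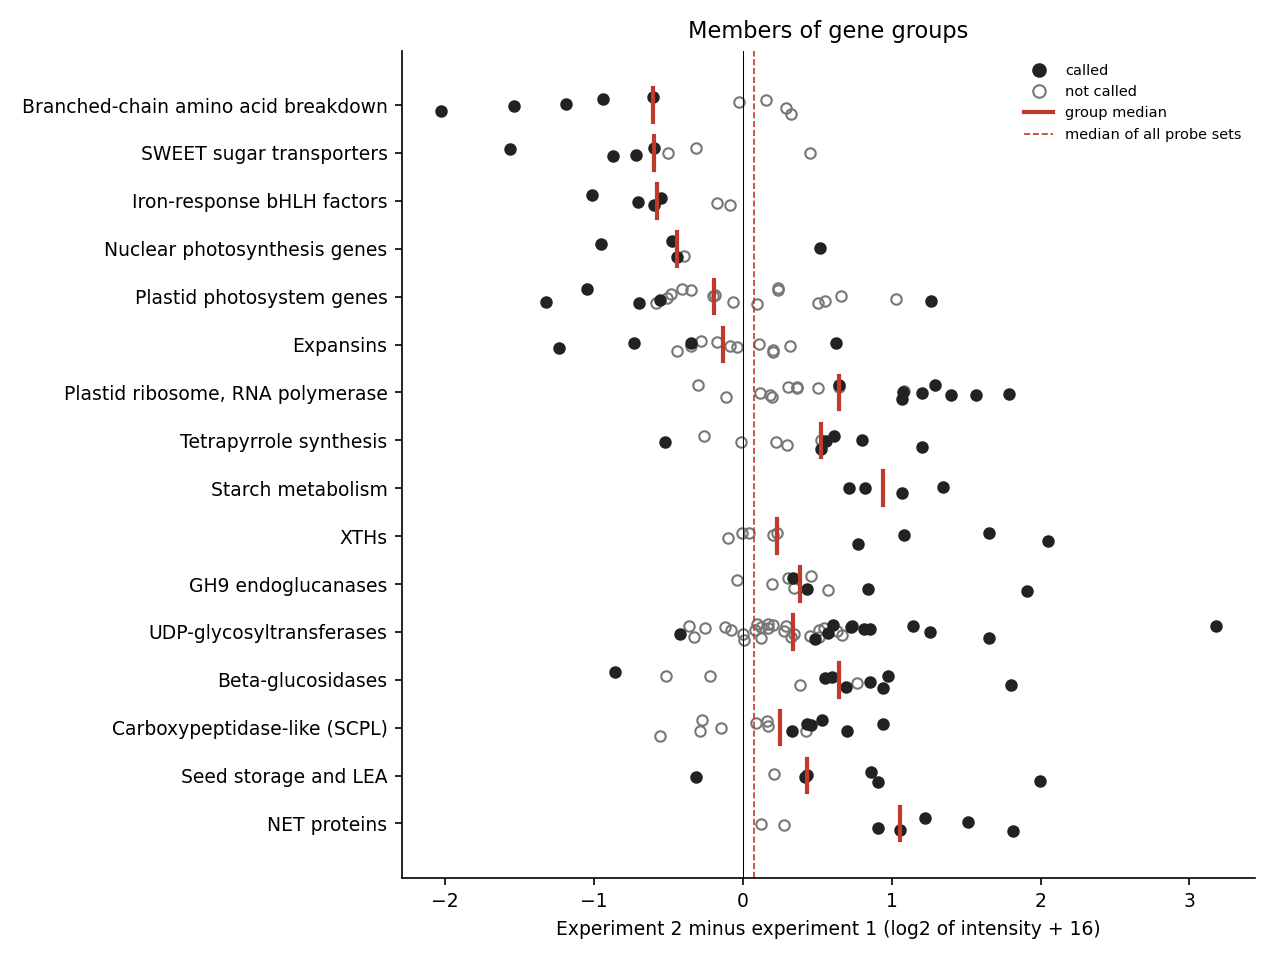
Each point is 1 tested gene of a group, placed by its difference on the log2 scale (experiment 2 minus experiment 1), filled where it was called and open where it was not. Red bars are group medians and the dashed line is the median of all probe sets, 0.07. Leucine breakdown (−0.60), SWEET transporters (−0.60) and iron-response factors (−0.57) have the lowest medians shown, and NET proteins (1.06) and starch metabolism (0.94) the highest.

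Other transcription and stress regulators moved in both directions, with 1 higher and 1 lower of 6 tested WRKY factors and 1 higher and 3 lower of 10 bZIP factors, where 17.5% of all genes tested were called higher and 11.0% lower. IAA29, an Aux/IAA repressor, fell by 1.02 (SE 0.17, adjusted p = 0.000551), WRKY22, a defence regulator, by 1.09, and STZ, a zinc finger factor of stress responses, by 1.03. BZIP60 and BZIP28, factors of the unfolded protein response, fell by 0.62 and 0.50, and bZIP48 by 1.56. ZAP1, a WRKY factor, and bZIP52 rose by 0.52 and 0.38. Both calls ended after median scaling and after quantile normalization, that of ZAP1 also without air1-2, air2-2, ethylene1-1 or ethylene2-1 (adjusted p = 0.0515 to 0.0724) and that of bZIP52 without any 1 array other than ethylene1-1 (0.0554 to 0.119). Of 4 tested genes of abscisic acid, drought and cold 3 fell and 1 rose. COR27, a cold-regulated gene also under the clock, fell by 1.197 (SE 0.17, adjusted p = 0.000211), and GI, a clock gene, fell by 0.59. DI21 rose by 0.51, a call that ended without air1-2, ethylene1-1 or ethylene2-1 (adjusted p = 0.0516 to 0.0643). DI19 fell by 0.63, or by 0.31 after quantile normalization, and COR47, a dehydrin gene, fell by 0.60 but was at 0.01 after quantile normalization. HIS1-3, a histone H1 variant that responds to drought and dim light, fell by 1.26 (SE 0.17, adjusted p = 0.000145). EXO, a gene of brassinosteroid-promoted growth, fell by 0.72 and the calmodulin-like gene CML23 rose by 1.25.

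Of 27 genes listed for the ethylene pathway, 4 had a probe set that the annotation names, and all 4 were tested. EIN3, the central transcription factor, fell by 0.43 and RTE1, a regulator of the receptor ETR1, fell by 0.38, with overlap between experiments for both. The call of EIN3 ended without ethylene2-1 (adjusted p = 0.0543) and in each treatment alone, and that of RTE1 without air1-2, air2-2, ethylene1-1 or ethylene2-2 (0.0674 to 0.0936). RTE1 was far brighter in ethylene than in air in both experiments, at 16334, 13031, 11403 and 9952 on ethylene1-1, ethylene1-2, ethylene2-1 and ethylene2-2 against 3206, 3499, 2858 and 2580 on air1-1, air1-2, air2-1 and air2-2. RTH and ETP2 did not pass.

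Genes of protein turnover fell in part. UBC28, a ubiquitin-conjugating enzyme, went from 74430 to 86449 in experiment 1 to 35637 to 43504 in experiment 2 and fell by 1.07 (SE 0.12, adjusted p = 2.14e-05), or by 0.58 after quantile normalization. The autophagy genes ATG8F and ATG8B fell by 0.73 and 0.63, the first by 0.47 after quantile normalization, and ATG8H rose by 0.42, a call that ended without air1-2, air2-1, air2-2 or ethylene2-1 (adjusted p = 0.0637 to 0.142). Of the vacuolar processing enzymes, GAMMA-VPE fell by 0.59 and BETA-VPE, known from seeds, rose by 0.81. The subtilases SBT1.3 and ATSBT5.2 moved in opposite directions, by 1.26 and −1.27.

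Some groups gave few or no calls. Of 3 tested cell cycle genes limma called 0, and the smallest p was that of AUR1, an Aurora kinase (−0.35, adjusted p = 0.0927), which was called after median scaling and after quantile normalization. The reference genes GAPC2 and PEX4 differed by −0.34 and −0.18 and did not pass. GAPC2 was called 0.20 higher after quantile normalization and lower after median scaling (−0.48). PDC2 of the hypoxia list (−0.25) and MT1C, a metallothionein gene (0.04), did not pass, but PDC2 was called after median scaling (−0.39) and MT1C after quantile normalization (0.49). Markers could say little about organs or cell types. Of the root and root hair list 3 of 20 genes were tested, XTH26 rose and EXPA18 (0.32) and EXPA7 (0.20) did not pass. From the shoot apex, cotyledon and epidermis list and the vascular list no gene was tested, so the labelled tissue could not be checked further and the makeup of the seedlings was not tested. In whole seedlings, fewer cells of a type and less RNA per cell cannot be told apart.

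The probe sets whose change between experiments was most alike in air and ethylene included MCCA, AT5G56100 and 3 probe sets that the annotation leaves unnamed. The fall of AT5G56100 was 2.19 in air and 2.18 in ethylene, and that of an unnamed probe set was 2.13 in each. Another unnamed probe set was at 3415, 2919, 733 and 487 on air1-1, air1-2, air2-1 and air2-2 and at 17121, 17770, 3669 and 3435 on ethylene1-1, ethylene1-2, ethylene2-1 and ethylene2-2. It thus fell by 2.37 between experiments in air and by 2.29 in ethylene, while being brighter in ethylene than in air in each experiment.

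At the other end, 5 named genes had the smallest p for a difference between experiments that depended on treatment, and limma called none of them (adjusted p = 0.427 to 0.611). AT1G64380 was at 2832, 2903, 2482 and 3001 on air1-1, air1-2, air2-1 and air2-2 and at 1749, 1572, 590 and 470 on ethylene1-1, ethylene1-2, ethylene2-1 and ethylene2-2. The experiments were alike in air, and the second was lower in ethylene. CYP718, a cytochrome P450, was 1.59 higher in experiment 2 in air and 0.14 lower in ethylene. The differences in air and in ethylene were −1.69 and −0.43 for AT3G15900, 0.38 and 1.54 for AT5G45670, and 0.02 and −1.36 for AT1G76070.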

How the data were processed

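The 8 arrays were measured on total RNA. The authors' deposited table holds 1 linear intensity per probe set and array, with a mean of 2500.2 on every array after 2% of the values are trimmed at each end; which software and summary method made them is not given in the sources used here, and no detection call was used. Intensities were turned into log2(intensity + 16). The 64 control probe sets and the 30% with the lowest mean were left out, and 15922 were fitted with limma 3.58.1 in R 4.3.3 (experiment and treatment as terms, eBayes with an intensity trend; a second model gave each treatment its own difference). Tables and plots were made with Python 3.11.15, pandas 2.3.3 and matplotlib 3.10.9. The fit was tested on simulated data, where false calls were more frequent than the nominal rate and not all of the smaller changes were recovered. Of the probe sets, 13513 name 1 gene in the array annotation, 503 several and 8730 none; 13436 matched the RefSeq table of assembly TAIR10.1. A gene was represented by its brightest probe set. Levels of different probe sets cannot be compared.

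Named genes were the 12 largest increases and decreases among genes called, without overlap and with a mean of at least 1000 in the brighter experiment, up to 3 members per list by p, the 5 probe sets of at least 4-fold change most alike in both treatments, and the 5 with the smallest interaction p. Further members were named after their values were seen. The comparison, the members and all lists were chosen with earlier results of these data known; lists added later were chosen from gene symbols, some with values in view. A member whose symbol stood for another gene was removed. Alternatives changed the pseudocount, filter, scaling, model terms and arrays. Sequences and coordinates were not used here.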

Additional observations from a re-analysis of the deposited data

Results flagged for a closer look

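A sample was looked for whose intensity stood apart from the other 3 of its experiment, measured as its gap to the nearest array over the whole range of the 4 arrays. Among 338 groups of 4 arrays, 18 had a ratio above Dixon's critical value for 4 values, which chance passes in about 1 of 20 groups. In experiment 1, air1-1 was the lowest array for TET2 (0.846). In experiment 1, air1-2 was the highest array for TUA6 (0.883) and VPS46.2 (0.905). In experiment 1, air1-2 was the lowest array for bHLH121 (0.874). In experiment 1, ethylene1-1 was the lowest array for AT2G25890 (0.843), HIS1-3 (0.881) and BETA-VPE (0.852). In experiment 1, ethylene1-2 was the lowest array for AUR1 (0.879). In experiment 2, air2-1 was the highest array for HIS1-3 (0.865). In experiment 2, air2-2 was the highest array for ZAP1 (0.937) and NET4B (0.877). In experiment 2, air2-2 was the lowest array for AKINBETA1 (0.938). In experiment 2, ethylene2-1 was the lowest array for HON4 (0.873), TUB1 (0.936) and BZIP60 (0.833). In experiment 2, ethylene2-2 was the highest array for AT1G72060 (0.932) and PYE (0.901). In experiment 2, ethylene2-2 was the lowest array for LCR67 (0.94). The values in parentheses are these ratios. Air and ethylene arrays are pooled in each group of 4, and no explanation was tested.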

How the results depend on the processing

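The counts of 2903 higher and 1975 lower probe sets moved by over 1.5 times under 5 alternatives. Median scaling gave 1776 higher and 2983 lower, and no treatment block gave 1738 and 1271. The air arrays alone gave 1403 and 1103, and the ethylene arrays alone gave 1127 and 782. Each of these fits to 1 treatment had fewer arrays than the main fit. Scaling to the control probe sets, added after the data were seen, gave 14454 higher and 12 lower, with a median difference of 1.62, and 1904 of 4877 calls had the opposite sign. The treatment-dependent difference had 1 call after median scaling (smallest adjusted p = 0.0239). Without 1 array the counts ran from 2012 to 2822 higher and from 1502 to 1906 lower. With a replicate block they were 2364 and 1594. Deviations of same-numbered arrays correlated at −0.245 between the experiments in air and −0.0801 in ethylene. Between air and ethylene they correlated at −0.0952 within experiment 1 and 0.191 within experiment 2. No pairing was used, and whether same-numbered arrays share more than a number was not tested. Quantile normalization turned the direction of TUA6 (0.15), COR47 (0.0145), GAPC2 (0.20), JAL34 (0.27) and PYK10 (0.0026), and 41 calls in all had the opposite sign under it. AT1G76070 was at 0.0248 in the air arrays alone. The causes were not tested. Of 165 named probe sets, 149 kept their side of the threshold under median scaling, 152 under quantile normalization and 154 under the replicate block. Fewer kept it without the treatment block (130), in the air arrays alone (119) and in the ethylene arrays alone (105). Dim genes such as AT1G48660 are limited by signal over background, and 4 arrays an experiment limit all values.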

Other observations

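Among the genes with a symbol that stand in none of the groups described, 22 were called, had no overlap between the experiments and differed at least 2-fold, 13 of them higher and 9 lower in experiment 2. They were picked out after their values were seen. Of those with a role in plastids or respiration, Cpn60beta2, a subunit of the plastid chaperonin, was at 4956, 3823, 3396 and 3533 on air1-1, air1-2, ethylene1-1 and ethylene1-2 and at 8114, 9261, 12596 and 14246 on air2-1, air2-2, ethylene2-1 and ethylene2-2. It rose by 1.47 (SE 0.17, limma adjusted p = 4.36e-05). CaS, a calcium-sensing protein of the thylakoid, rose by 1.201, ty2, a plastid thioredoxin, by 1.22, and CYTC-2, a cytochrome c, by 1.04.

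On the other side, MGL, a methionine gamma-lyase that can feed isoleucine synthesis, was at 24667 to 29289 in experiment 1 and 8851 to 15697 in experiment 2 and fell by 1.28 (SE 0.14, limma adjusted p = 1.96e-05). WLIM2b, an actin-bundling LIM protein, fell by 1.02, or by 0.66 after quantile normalization, and SKP2A, an F-box protein, by 1.03. ATL8, ATC and STR18 fell by 1.36, 1.44 and 1.31, the last of them bright and at −1.05 after quantile normalization.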
